A study of Mus musculus with 6 samples.

Results

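The 10 genes described here are AP-1 subunits and other immediate early genes, and they were chosen by name from the 47937 genes of the deposited table: Fos, Fosb, Jun, Junb, Jund, Egr1, Ier2, Atf3, Dusp1 and Nr4a1. All 10 were found. A mean normalized count of at least 10 over the 6 libraries, the filter for testing, was reached by 8 of them, and not by Fosb and Atf3. The study sequenced polyadenylated RNA of bone marrow haematopoietic stem cells (HSCs) from 8 weeks old wild-type C57BL/6 mice, without treatment. The cells were sorted with the gate LSK+CD34-CD48-Flt3-Slam1+ and separated into CD93+ (CD93pos) and CD93- (CD93neg) HSCs, with 3 libraries each. CD93 is a surface receptor. Marrow flushed from femora and tibiae passed through red cell lysis and bead depletion of lineage-positive cells before the sort. Which animals, and how many, went into a library is not in the labels, so p-values measure the spread between these libraries.

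AP-1 is a family of transcription factors in which a FOS protein pairs with a JUN protein, or JUN proteins pair with each other, through a leucine zipper, and the pair binds DNA. Its genes belong to the immediate early genes, which are transcribed within minutes of a signal from pre-made factors, many of them through MAP kinases, and whose RNAs are short-lived. They are also known to respond to cell isolation and sorting, which every library here had gone through.

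Reads assigned to genes numbered 5794528 to 9509304 in CD93pos libraries and 2832653 to 4614396 in CD93neg libraries. CD93neg replicate 1 stood apart: of the 11805 tested genes it had no read for 71.0%, against 26.4% and 16.0% in CD93neg replicates 2 and 3 and 2.10% to 13.5% in CD93pos. Of 10 HSC markers, all were read in the other 5 libraries and 5 in CD93neg replicate 1, where Procr, Fgd5, Hoxb5, Mllt3 and Ctnnal1 were at 0, as were the gate genes Slamf1, Ly6a, Cd48 and Flt3, while Kit had 5142 reads and Cd34 1715. Cd34 (1603 to 3216 reads) and Cd48 (371 to 640 reads) were read in every CD93pos library, although the gate takes cells without these proteins. Cd93 itself had 906, 1001 and 550 reads in CD93pos replicates 1 to 3, and 0, 419 and 38 in CD93neg. The labels describe male mice, yet 4 Y-linked genes together had 1, 0 and 0 reads in CD93neg against 1100 to 2196 in CD93pos, and Xist, transcribed from the inactive X chromosome, counted 2419 and 1143 reads in CD93neg replicates 2 and 3 against 0 to 12 elsewhere. Groups are given as labelled. Markers of other cells also differed between the libraries. The 10 neutrophil markers summed to 12463 and 8968 CPM (reads per 1e6 assigned reads) in CD93neg replicates 2 and 3, to 0 in CD93neg replicate 1 and to 3.11 to 276 in CD93pos, where Ly6g was at 0. The 9 B lineage markers summed to 11111 and 34016 CPM in the same 2 CD93neg libraries, to 0.353 in CD93neg replicate 1 and to 73.7 to 100.4 in CD93pos, where Cd79a, Ms4a1, Pax5 and Ebf1 were at 0 but Cd79b had 349 to 584 reads, Ighm 101 to 173 and Vpreb1 7 to 47. The 7 monocyte and macrophage markers summed to 1142 and 4148 CPM in those libraries, to 0 in CD93neg replicate 1 and to 353 to 466 in CD93pos. Lyz2, also a neutrophil gene, had most of these reads, 5067 and 10969, and Csf1r, Ccr2, Adgre1 and Ms4a6c were at 0 in CD93neg replicate 2, while Ccr2, Ms4a6c and Cd68 were read in every CD93pos library. The 6 mast cell and basophil markers summed to 94.7 to 1057 CPM in CD93pos and to 0, 27.5 and 0 in CD93neg, where 5 of the 6 were unread. The 6 erythroid markers summed to 369, 308 and 627 CPM in CD93pos and to 228, 6.50 and 75.6 in CD93neg, where Klf1 was unread. The 7 T and NK markers summed to 203 to 414 CPM in CD93pos and to 18.9 to 247 in CD93neg. Nkg7 alone supplied most of that sum in every library but CD93neg replicate 3, where Klrb1c had 158 reads and Nkg7 129. Cd3d, Cd3e, Cd3g, Cd8a and Trbc1 never exceeded 26 reads in a library. The part of these levels in the results below was not tested.

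Fos separated the groups most widely: each CD93pos library held 501 or more normalized counts, and the CD93neg libraries held 1 read in all. The low Fosb had the same pattern. Jun and Ier2 were the most abundant members and did not separate the groups. Junb and Nr4a1 were highest in CD93neg replicates 2 and 3, and Dusp1, Egr1 and Jund overlapped. None of the 8 tested members passed the threshold in limma's test over all 11805 genes (adjusted p under 0.05), which called 0% of them. At an unadjusted p under 0.05, limma listed 1436 genes, 12.2%, and Fos was the only member among them. edgeR's quasi-likelihood test on whole reads recovered from the table called 0 genes. The authors' deposited table, made with DESeq2, holds 705 genes with an adjusted p under 0.05, which is 5.97% of those with an adjusted p, and Fos was the only member. Of the 705 genes 659 were higher in CD93pos, 5.58%.

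**Figure D1:**
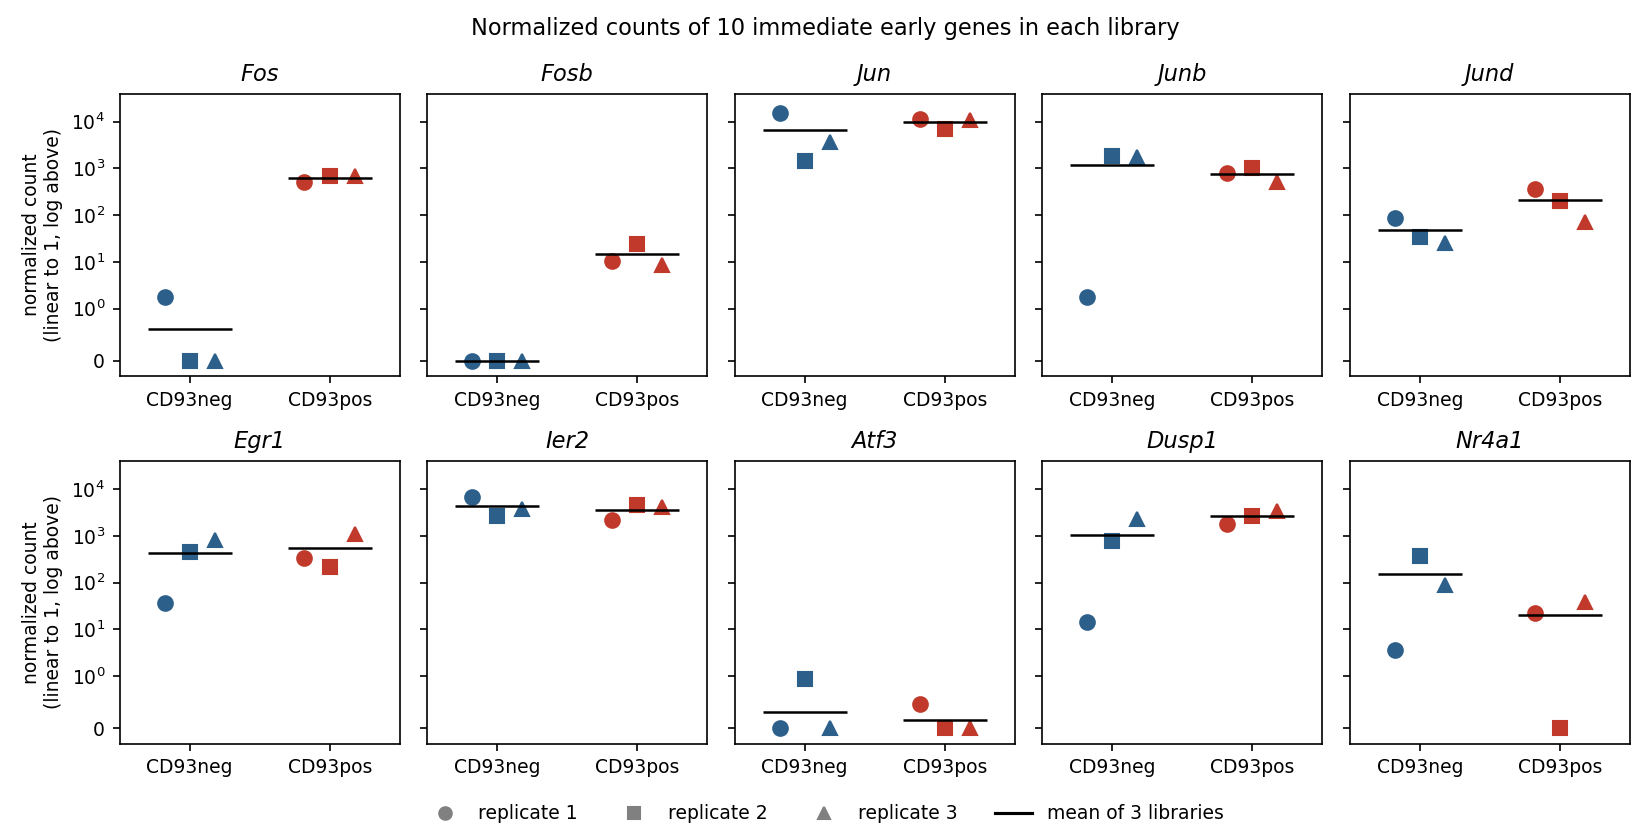
Normalized count of each of the 10 members in the 3 CD93neg (blue) and 3 CD93pos (red) libraries, on an axis that is linear up to 1 and logarithmic above; symbols mark the replicate and the bar the mean of 3 libraries. Fos and Fosb are the panels in which the groups do not overlap, and CD93neg replicate 1 (circle) is lowest of all 6 libraries for Junb, Egr1 and Dusp1 but highest for Jun and Ier2.

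Fos (ENSMUSG00000021250.13, GRCm38 chromosome 12, 85473890 to 85477273, plus strand, protein coding) encodes the founding FOS subunit of AP-1, which binds DNA only when paired. It had 1097, 878 and 1093 reads in replicates 1, 2 and 3 of CD93pos, against 1, 0 and 0 in those of CD93neg. As normalized counts these were 501, 696 and 673 in CD93pos and 1.82, 0 and 0 in CD93neg. Every CD93pos library lay far above every CD93neg library, and the CD93pos libraries lay close together. The group means were 623 ± 106 and 0.605 ± 1.05 (SD, n = 3 each). The log2 fold change, on the log2(normalized count + 1) scale as for all members, was 8.77 (SE 1.46) with a limma adjusted p of 0.0558, so Fos missed the threshold. The unadjusted p was 0.000316. The residual SD of Fos itself was 0.64 on this scale, and the moderated SD that limma used was 1.79, drawn toward a trend of 2.44 for genes of its level. Of all tested genes 18.3% were higher in CD93pos without overlap of the groups. The authors' deposited table gives Fos a log2 fold change of 10.27 (SE 2.13) and an adjusted p of 0.000604. Across 18 other settings, limma, edgeR and DESeq2 gave adjusted p-values for Fos from 0.000601 to 0.378 and log2 fold changes from 5.63 to 10.28, all positive, with 6 of the 18 past the threshold. Exact permutation of 3 against 3 libraries can give no p below 0.1.

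Set against summed reads, Fos amounted to 137 CPM in CD93pos and 0.0957 CPM in CD93neg, a ratio of 1428 with an exact 95% interval of 256 to 56409. The interval, like every bound against a floor of reads, holds for counting error alone, since amplified reads can come from 1 molecule. Without CD93neg replicate 2 the ratio was 797. Without CD93neg replicate 1, which held the single read, Fos was unread in CD93neg and at least 347-fold lower there than in CD93pos, against a floor of 3 reads over the group. Genes read in every CD93pos library with at most 1 read over CD93neg made up 5.95% of all tested genes, 702 in number. Mast cell, basophil and erythroid markers moved with Fos: the former summed to 94.7, 1057 and 696 CPM in CD93pos against 0, 27.5 and 0 in CD93neg, and Klf1, an erythroid factor, had 1094, 375 and 1166 reads against none. Their part in the Fos result was not tested. In bulk libraries fewer cells that carry a transcript and less of it per cell cannot be told apart.

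Fosb (ENSMUSG00000003545.3, chromosome 7, 19302696 to 19310051, minus strand), a second FOS subunit, was low but followed the same library pattern. Its reads numbered 23, 31 and 14 in CD93pos, with none in CD93neg, or 10.5, 24.6 and 8.62 normalized counts against 0 in each. The groups did not overlap. Its mean of 7.28 normalized counts was under the filter, so it was not tested here. Fosb was at least 10.5-fold higher in CD93pos, taking 3 reads over CD93neg as the floor, and at least 5.89-fold without CD93neg replicate 2. The authors' deposited table gives it an adjusted p of 0.179.

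Promoter sequences of 8 of the 10 members were found in a RefSeq table on GRCm38.p6. Those of Fos and Fosb, the members unread or nearly so in CD93neg, and of Jun and Dusp1, members abundant in CD93pos, are printed as the 250 bases before the RefSeq gene start, 5′ to 3′ on the gene's strand. That start equals the GENCODE M21 one for Fos and Jun, and lies 6 bases inside the M21 gene for Fosb and 53656 bases inside it for Dusp1, where M21 includes a longer transcript. Capitals mark letters that match a searched motif: TGACGT and TATAAA in Fos (chr12:85473640-85473889, plus strand), GCGNGGGCG in Fosb (chr7:19310046-19310295, minus strand), TGACNTCA in Jun (chr4:95052223-95052472, minus strand), and TGACGT and TGACGTCA in Dusp1 (chr17:26508473-26508722, minus strand).
Fos: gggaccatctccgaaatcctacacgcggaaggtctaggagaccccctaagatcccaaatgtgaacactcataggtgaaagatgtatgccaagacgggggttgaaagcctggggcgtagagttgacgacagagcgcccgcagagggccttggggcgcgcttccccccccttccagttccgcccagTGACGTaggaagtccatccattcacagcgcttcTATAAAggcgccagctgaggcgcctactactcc
Fosb: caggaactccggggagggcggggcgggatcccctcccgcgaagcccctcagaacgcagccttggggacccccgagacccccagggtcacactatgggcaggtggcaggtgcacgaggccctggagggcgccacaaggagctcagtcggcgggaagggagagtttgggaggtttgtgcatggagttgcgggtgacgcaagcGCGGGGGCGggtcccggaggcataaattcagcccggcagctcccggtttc
Jun: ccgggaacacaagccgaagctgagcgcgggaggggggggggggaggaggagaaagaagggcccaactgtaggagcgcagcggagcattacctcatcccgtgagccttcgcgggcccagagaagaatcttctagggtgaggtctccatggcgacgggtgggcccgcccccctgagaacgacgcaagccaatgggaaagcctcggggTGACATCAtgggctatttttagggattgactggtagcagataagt
Dusp1: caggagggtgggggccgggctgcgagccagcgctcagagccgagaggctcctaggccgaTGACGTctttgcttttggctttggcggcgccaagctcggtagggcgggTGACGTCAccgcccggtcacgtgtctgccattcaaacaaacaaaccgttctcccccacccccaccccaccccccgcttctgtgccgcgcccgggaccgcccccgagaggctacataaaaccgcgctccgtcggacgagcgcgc

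Both strands of these 250-base windows were searched. TGACGT, the core letters of the cAMP response element to which CREB and ATF factors bind, lay 66 to 61 bases before the start of Fos, 191 to 186 and 143 to 138 bases before that of Dusp1, and 8 to 3 bases before that of Atf3, on the reverse strand. It occurs in 6.47% of all 32851 promoters of this length. The whole element TGACGTCA, which contains TGACGT, occurs in 1.55% of them and was found in Dusp1, from 143 to 136 bases before the start. TGACNTCA, which takes in TGACGTCA, was matched in Jun as TGACATCA, 45 to 38 bases before the start, and occurs in 7.49%. GCGNGGGCG, letters bound by EGR proteins, was matched in Fosb, 50 to 42 bases before the start, and in Nr4a1 on the reverse strand, and occurs in 4.70%. TATAAA, the TATA box, lay 33 to 28 bases before the start of Fos and occurs in 12.4%. The letters TGACTCA, an AP-1 site, were not in any of the 8 windows, and occur in 4.46% of all promoters. Nor was the CArG box of serum response factor, which occurs in 1.47%. Bases farther upstream than 250 were not searched, and Egr1 and Ier2 had no window, so sites there are unknown here. Fos and Dusp1, which both hold TGACGT, differed in reads: Dusp1 had 826 and 1496 reads in CD93neg replicates 2 and 3, where Fos had none. The relation of these letters to the reads was not tested.

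Jun (ENSMUSG00000052684.4, chromosome 4, 95049034 to 95052222, minus strand) encodes the main partner of FOS. It had 11507, 7016 and 11042 normalized counts in replicates 1, 2 and 3 of CD93pos, against 15180, 1436 and 3685 in the CD93neg replicates. CD93neg replicate 1 was highest of all 6 libraries and CD93neg replicates 2 and 3 were lowest, so the groups overlapped. The CD93pos mean was 9855 ± 2470 and the CD93neg mean 6767 ± 7372 (SD, n = 3 each). Jun did not pass the threshold, and its log2 fold change was 1.16 (SE 0.72, limma adjusted p = 0.54). The value was 2.06 without CD93neg replicate 1, and without CD93neg replicates 2 and 3 it was -0.66. By normalized count per kilobase of exon, Jun ranked 18, 38 and 26 among all genes in CD93pos, and 6, 584 and 142 in CD93neg. Its exons share 232 bases with the antisense gene Junos, and Junos had 31 reads over all libraries against 1509 or more per library for Jun.

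Junb (ENSMUSG00000052837.5, chromosome 8, 84974484 to 84978718, minus strand) encodes a JUN subunit that is a weaker activator than JUN and is known to restrain HSC and myeloid proliferation in mice. It had 788, 1022 and 501 normalized counts in CD93pos and 1.82, 1854 and 1725 in CD93neg. CD93neg replicates 2 and 3 lay above, and CD93neg replicate 1, with a single read, below every CD93pos library. The means were 770 ± 261 and 1194 ± 1034 (SD, n = 3 each), lower in CD93pos, while the log2 fold change was 1.83 (SE 2.53, limma adjusted p = 0.707), since on the log scale the near-zero library weighs most. Without CD93neg replicate 1 the log2 fold change was -1.27. The libraries high in Junb were those with the neutrophil and B lineage marker reads given above, whose part in the value was not tested. Junb shares 173 exon bases with Prdx2 on the opposite strand, and without a stated strand setting reads there cannot be assigned.

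Jund (ENSMUSG00000071076.5, chromosome 8, 70698949 to 70700616, plus strand) encodes the JUN subunit usually expressed without stimulation. It had 359, 201 and 70.8 normalized counts in CD93pos and 85.3, 33.3 and 25.0 in CD93neg. The lowest CD93pos library lay under the highest CD93neg library, so the groups overlapped by 1 library on either side. The means were 210 ± 144 and 47.9 ± 32.7 (SD, n = 3 each), a ratio of 4.39. The log2 fold change was 2.03 (SE 1.86, limma adjusted p = 0.624). The exons of Jund share 877 of their 1668 bases with the antisense gene Gm11175, which had no read in any library. How reads that fall on both genes were counted is not stated, so the level of Jund is uncertain.

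Egr1 (ENSMUSG00000038418.7, chromosome 18, 34859823 to 34864984, plus strand), a zinc finger transcription factor induced through serum response factor and known in mice to keep HSCs quiescent and in the marrow, varied as much within the groups as between them. It had 332, 215 and 1085 normalized counts in CD93pos and 36.3, 459 and 810 in CD93neg. CD93pos replicate 3 and CD93neg replicate 3 were the highest libraries of their groups. The log2 fold change was 0.83 (SE 1.76, limma adjusted p = 0.807), and -0.51 without CD93neg replicate 1.

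Nr4a1 (ENSMUSG00000023034.6, chromosome 15, 101254269 to 101274795, plus strand), an orphan nuclear receptor induced by signals such as those of antigen receptors, was the member with the most negative fold change. It had 21.9, 0 and 38.8 normalized counts in CD93pos and 3.63, 365 and 87.5 in CD93neg. CD93neg replicates 2 and 3 exceeded every CD93pos library, but CD93neg replicate 1 did not, with 2 reads. The means were 20.2 ± 19.4 and 152 ± 189 (SD, n = 3 each), 7.52 times higher in CD93neg. The log2 fold change was -2.45 (SE 2.21, limma adjusted p = 0.623). It was -4.21 without CD93neg replicate 1 and 1.07 without CD93neg replicates 2 and 3. Without CD93pos replicate 2, where it was unread, the log2 fold change was -0.82. The neutrophil and B lineage markers given above were high in the same 2 CD93neg libraries, and their part in the value was not tested.

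Ier2 (ENSMUSG00000053560.4, chromosome 8, 84661331 to 84662852, minus strand), an immediate early nuclear protein, was the steadiest member. It had 2148, 4494 and 4159 normalized counts in CD93pos and 6679, 2656 and 3728 in CD93neg. The highest and the second-lowest library were both in CD93neg, the lowest was in CD93pos, and the groups overlapped. The log2 fold change was -0.24 (SE 0.41, limma adjusted p = 0.756), the smallest in size among the members. Ier2 ranked between 10 and 82 among all genes per kilobase in every library.

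Dusp1 (ENSMUSG00000024190.6, chromosome 17, 26505590 to 26562128, minus strand) encodes a phosphatase that switches off MAP kinases, and so acts against the signals that induce the other members. It had 1786, 2662 and 3476 normalized counts in CD93pos and 14.5, 786 and 2338 in CD93neg. CD93neg replicate 3 lay within the CD93pos range, and CD93neg replicates 1 and 2 lay below it. The means were 2641 ± 846 and 1046 ± 1183 (SD, n = 3 each), a ratio of 2.52. The log2 fold change was 3.06 (SE 1.73, limma adjusted p = 0.499). Without CD93neg replicate 1, which had 8 reads, it was 0.91. Of the Dusp1 exon bases, 11 overlap Ergic1 on the opposite strand.

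Atf3 (ENSMUSG00000026628.13, chromosome 1, 191170296 to 191218039, minus strand), a stress-induced bZIP repressor, was essentially unread. It had 1 read in CD93pos replicate 1, 1 in CD93neg replicate 2 and none in the other 4 libraries, so it gives no comparison at this depth.

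Among the 8 tested members 6 had a positive and 2 a negative log2 fold change, and 79.9% of all tested genes had a positive one. Their median was 1.49, below the 2.36 of all tested genes. Leaving out CD93neg replicate 1 gave a median of 0.52, against 0.43 for all genes. Of the 8, only Fos was higher in CD93pos without overlap, and none was lower without overlap, against 18.3% and 1.92% of all tested genes.

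**Figure D2:**
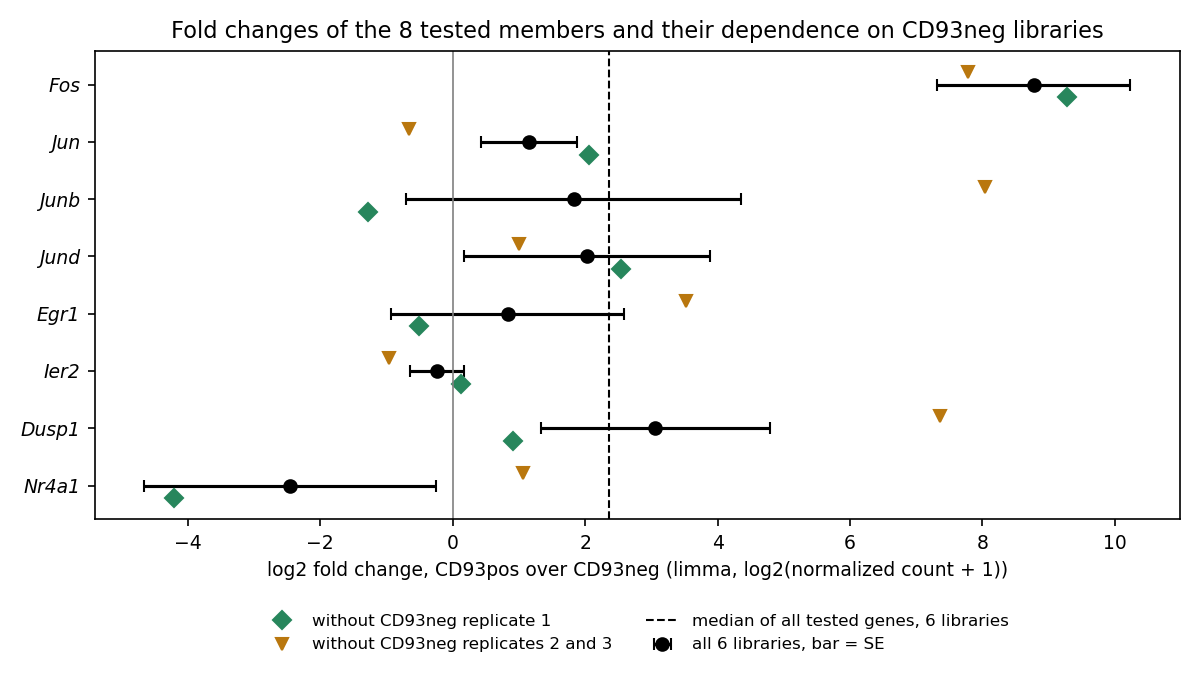
Log2 fold change of each tested member, CD93pos over CD93neg, with all 6 libraries (black, bar of 1 SE), without CD93neg replicate 1 (green) and without CD93neg replicates 2 and 3 (orange, a single CD93neg library); the dashed line is the median of all tested genes with 6 libraries, 2.36. Fos stays between 7.78 and 9.27, while Jun, Junb, Egr1, Ier2 and Nr4a1 lie on either side of 0 depending on the CD93neg libraries used.

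CD93neg replicate 1 showed a division among the members. Jun and Ier2 reached their highest normalized counts of all 6 libraries there, with 8362 and 3679 reads, and ranked 6 and 10 among all genes per kilobase. Jund, with 47 reads, also had more normalized counts there than in the other CD93neg libraries. In the same library Egr1 had 20 reads, Dusp1 8, Nr4a1 2, Junb 1 and Fos 1. In CD93neg replicates 2 and 3 Egr1, Dusp1, Junb and Nr4a1 had between 56 and 1949 reads, but Fos and Fosb had none.

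Levels of different genes were compared as normalized counts per kilobase of exon, with exon lengths from GENCODE M21. Over the 6 libraries the order was Ier2 at 2613 ± 1049, Jun at 2606 ± 1631, Dusp1 at 557 ± 383, Junb at 427 ± 310, Fos at 133 ± 148, Egr1 at 109 ± 87.2, Jund at 77.4 ± 77.4, Nr4a1 at 24.6 ± 40.0, Fosb at 1.17 ± 1.55 and Atf3 at 0.109 ± 0.184 (SD, n = 6). Jun lay above Dusp1 in 6 of 6 libraries, and theirs was the only step between neighbours larger than the larger of both SDs. Ier2 exceeded Jun in 3 of 6 libraries, Dusp1 exceeded Junb in 4, Junb exceeded Fos in 5, Jund exceeded Nr4a1 in 4 and Nr4a1 exceeded Fosb in 5. Fos exceeded Egr1 in all 3 CD93pos libraries and in none of CD93neg, Egr1 exceeded Jund in 1 of CD93pos and 2 of CD93neg, and Fosb exceeded Atf3 in all 3 CD93pos libraries. Pooled over 6 libraries, these neighbours do not differ beyond their spread. The pooled value of Fos is a level that no library had: it was 213 to 296 per kilobase in CD93pos and at most 0.772 in CD93neg. Within CD93pos the order was Jun (3090), Ier2 (2365), Dusp1 (798), Junb (335), Fos (265), Jund (126), Egr1 (121), Nr4a1 (5.77) and Fosb (2.33). Within CD93neg it was Ier2 (2861), Jun (2122), Junb (519), Dusp1 (316), Egr1 (97.0), Nr4a1 (43.4), Jund (28.7) and Fos (0.257).

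Ratios within a library do not depend on how libraries are scaled. For every 100 units of Jun per kilobase, Fos had 5.91, 13.4 and 8.26 units in replicates 1, 2 and 3 of CD93pos, against 0.0162, 0 and 0 in CD93neg. The same ratio for Junb was 9.49, 20.2 and 6.29 in CD93pos, and 0.0166, 179 and 64.9 in CD93neg. Fos therefore lay below Jun in every library of both groups, and Junb lay above Jun in CD93neg replicate 2 alone. Fos and Junb had 1 read each in CD93neg replicate 1, which gives no order between them. Dusp1 had 38.2, 27.2 and 38.4 units for every 100 of Ier2 in CD93pos, and 0.1, 13.6 and 28.8 in CD93neg. Jun, Ier2 and Dusp1 made up 86.7% to 90.1% of the members' summed level per kilobase in CD93pos, and 99.3%, 70.2% and 81.6% in CD93neg replicates 1, 2 and 3. Junb took 23.3% and 14.2% in CD93neg replicates 2 and 3, against 2.71% to 6.47% in CD93pos. Fos took 3.33% to 4.31% in CD93pos and at most 0.00838% in CD93neg.

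**Figure D3:**
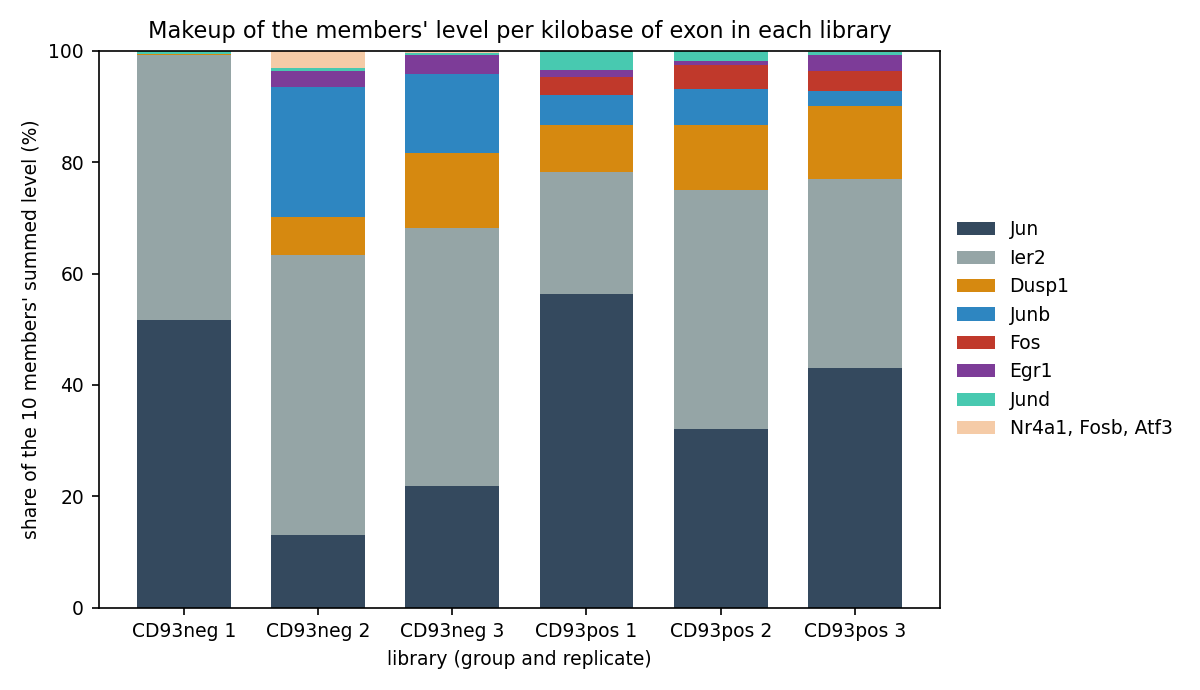
Share of each member in the summed level per kilobase of exon of the 10 members, in percent, for each CD93neg and CD93pos library. Jun and Ier2 fill CD93neg replicate 1, Junb widens to 23.3% and 14.2% in CD93neg replicates 2 and 3, and Fos is visible in the CD93pos bars.

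The members' normalized counts summed to 17454, 16331 and 21054 in CD93pos and to 22002, 7590 and 12399 in CD93neg. The means were 18280 ± 2467 and 13997 ± 7338 (SD, n = 3 each), a ratio of 1.31, and CD93neg held both the highest and the lowest library. The ratio was 1.83 without CD93neg replicate 1, and 0.831 without CD93neg replicates 2 and 3. Jun was the largest term of the sum in 4 libraries and Ier2 in CD93neg replicates 2 and 3. Among 10619 ranked genes, the 5 whose log2 level was most like the log2 sum over the 6 libraries were Atp5b (Pearson r = 0.992), Eprs (0.988), Cbx5 (0.984), Pdia6 (0.984) and Rfc5 (0.983). Atp5b encodes an ATP synthase subunit, Eprs a tRNA synthetase, Cbx5 a heterochromatin protein, Pdia6 a chaperone of the endoplasmic reticulum and Rfc5 a subunit of a replication clamp loader. The ranking over so many genes and 6 libraries is a description only. Each of the 5 shares the order of the sum at its ends: lowest in CD93neg replicate 2 and highest in CD93neg replicate 1.

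Related genes were described with 6 lists. No gene of any list passed the threshold of the main limma test over all genes. Of 17 other AP-1 and related bZIP genes 13 were tested, 11 positive and 2 negative, with a median log2 fold change of 1.82, or 0.20 without CD93neg replicate 1. Nfe2l2, the regulator of antioxidant genes, had a mean of 751 ± 194 normalized counts over CD93pos libraries, against 432 ± 685 over CD93neg libraries (SD, n = 3 each, and in the same order below). Batf, a partner of JUN proteins, had 209 ± 44.5 and 655 ± 700. Atf4, which acts in amino acid stress, had 352 ± 68.9 and 273 ± 327. Fosl1, a further FOS subunit named after its values were seen, had 18, 108 and 44 CD93pos reads and no CD93neg read, and was at least 26.4-fold higher, with an adjusted p of 0.0423 in the authors' deposited table. That bound was 13.0-fold without CD93pos replicate 2, 14.7-fold without CD93neg replicate 2 and 40.9-fold without CD93pos replicate 1. Of the 7 other EGR and NR4A genes and corepressors, Nab1 and Nab2 were tested, and Egr4 and Nr4a3 were unread in all libraries. Nab2, which represses EGR proteins, had 64.5, 32.5 and 38.2 normalized counts in CD93pos and 1405, 0 and 0 in CD93neg. Nab1, its relative, had 104 ± 71.7 and 141 ± 177. Nr4a2, with 81, 0 and 25 CD93pos reads and no CD93neg read, was under the filter.

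Of 36 other early genes 30 were tested, 22 positive and 8 negative, with a median log2 fold change of 2.06. Leaving out CD93neg replicate 1, 17 were positive and 13 negative, with a median of 0.65. Myc, the growth transcription factor, had 3493, 2936 and 3175 normalized counts in CD93pos and 3.63, 1629 and 2659 in CD93neg, without overlap (log2 fold change 3.56, SE 2.19, limma adjusted p = 0.536). Its log2 fold change was 0.62 without CD93neg replicate 1. Klf10, a zinc finger factor induced by TGF-beta, had 1502, 4065 and 1722 against 0, 1342 and 184, also without overlap (5.12, SE 2.56, adjusted p = 0.456 in limma), and 2.13 without CD93neg replicate 1. Zfp36 encodes tristetraprolin, which promotes decay of short-lived RNAs including Fos RNA. It had 484, 784 and 1014 normalized counts in CD93pos and 6372, 1256 and 2666 in CD93neg, lower in CD93pos without overlap (-1.93, SE 0.72, limma adjusted p = 0.31). Every CD93neg library was thus higher in Zfp36 and near or at 0 for Fos, and their relation was not tested.

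Of 23 genes upstream of the members, in the MAP kinase and serum response factor pathways, 22 were tested, 21 positive and 1 negative, with a median log2 fold change of 2.58. Leaving out CD93neg replicate 1, 13 were positive and 9 negative, with a median of 1.37. Rps6ka1, the kinase RSK1, had a mean of 716 ± 279 normalized counts over CD93pos libraries, against 928 ± 804 over CD93neg libraries (SD, n = 3 each). Mapk8, the JUN kinase JNK1, had 188, 183 and 242 in CD93pos and 2812, 7.61 and 1.56 in CD93neg. Mapk8 was thus highest in CD93neg replicate 1, as Jun was, and their relation was not tested. Nab2, Eprs and Cbx5 were also highest in that library. Of 9 other MAP kinase phosphatases 5 were tested, 4 positive and 1 negative, with a median of 3.79, or 4.30 with unread genes at their bound and 3.37 without CD93neg replicate 1. Dusp2, a nuclear phosphatase, had 152, 30.9 and 105 normalized counts in CD93pos and 2104, 481 and 228 in CD93neg, the opposite order to Dusp1 and without overlap (-2.94, SE 1.79, limma adjusted p = 0.53). Dusp6 and Dusp7, which act on ERK, had 312 ± 85.2 against 102 ± 177 and 82.1 ± 58.2 against 15.6 ± 27.1.

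All 12 heat shock genes known to be raised by cell handling were tested and had positive fold changes, with a median of 1.62, under that of all tested genes. Leaving out CD93neg replicate 1, 9 were positive and 3 negative, with a median of 0.71. Hspa8, a constitutive HSP70 chaperone, had a mean of 11919 ± 4724 normalized counts over CD93pos libraries, against 8925 ± 2941 over CD93neg libraries (SD, n = 3 each). Hsp90aa1 had 3171 ± 617 and 4204 ± 4931. Hsp90ab1, a constitutive HSP90 chaperone, had 7824, 7187 and 9737 in CD93pos and 2812, 4341 and 5139 in CD93neg, without overlap (1.04, SE 0.23, limma adjusted p = 0.0669). The labels give no time from marrow collection to lysis.

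**Figure D4:**
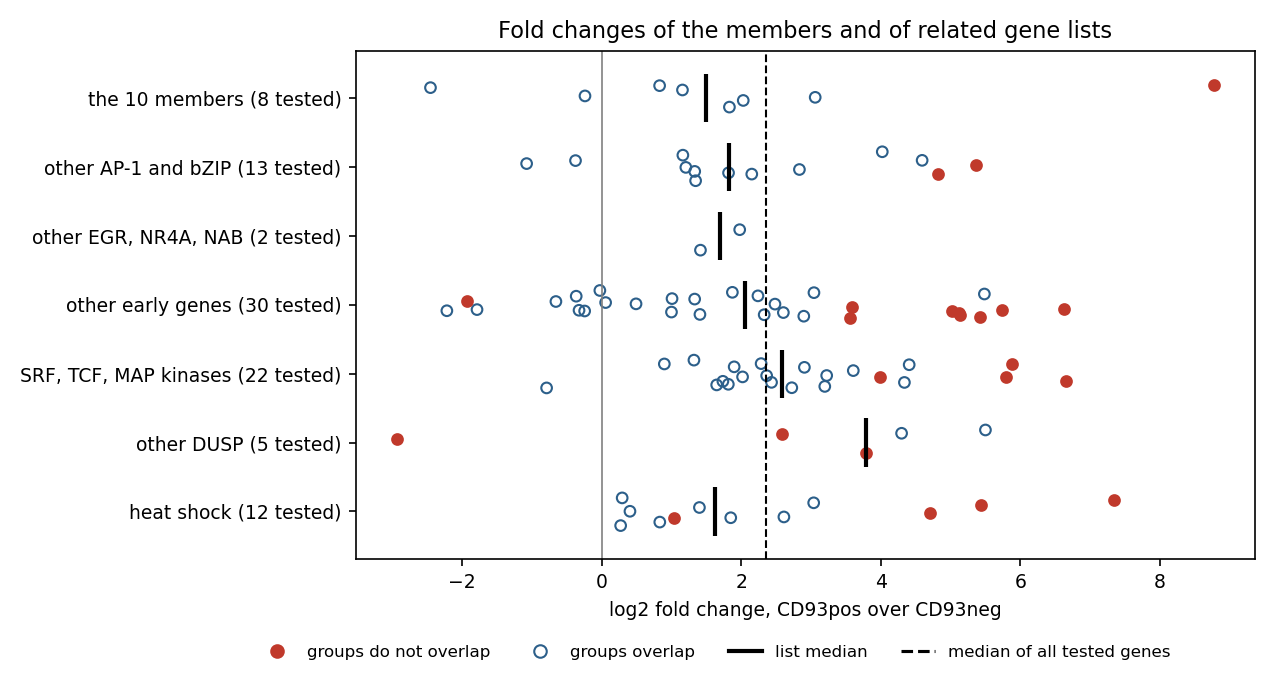
Log2 fold change, CD93pos over CD93neg, of each tested gene of the members and of the 6 related lists; filled red points have groups that do not overlap, black bars are list medians and the dashed line is the median of all tested genes, 2.36. Fos, at 8.77, lies farthest to the right of all points shown.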

How the data were processed

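RNA sequencing of 6 libraries was analysed, 3 CD93pos and 3 CD93neg, grouped by title. Per the submitters' processing notes, the tools were STAR, featureCounts (Subread 1.5.0-p1) and DESeq2 1.26, and the build was GRCm38 (mm10). No source used here states the annotation release or the strand setting. One table deposited by the authors holds a signal per gene and library, the read count over that library's size factor. In the other, the authors give each gene's symbol, mean signal, log2 fold change and its error, test score, p-value and adjusted p-value.

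Whole reads were recovered for 100% of values above 0, within 0.001. The main test was limma 3.58.1 (trended eBayes, two-sided) on log2(normalized count + 1), for genes whose mean normalized count reached 10, with Benjamini-Hochberg adjustment and a threshold of 0.05. This scale understates changes of low genes and gives large values where a library is near 0. edgeR 4.0.16 and DESeq2 1.42.0 on recovered reads were alternatives (R 4.3.3), as were other pseudocounts, filters, scalings, a replicate block, library weights and libraries left out. The scripts were tested on simulated counts. Positions and exon lengths came from GENCODE M21, where 47224 of the 47937 IDs were found by ID without version. Promoters came from RefSeq. Python 3.11.15 was used for the rest.

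The members and lists were chosen with earlier results of these data known. Named genes were the members, the 3 genes with the highest mean in each of 6 related lists, and the 5 most like the members' summed level; 1 of them is not reported here. Predicted genes, pseudogenes, mitochondrial genes and receptor segments were left out of that ranking.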

Additional observations from a re-analysis of the deposited data

How the results depend on the processing

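The limits include 3 libraries a group and 1 library with few genes. Y-linked reads also separated the groups, with 1100 to 2196 in CD93pos against 1, 0 and 0 in CD93neg. Xist had 2419 and 1143 reads in CD93neg replicates 2 and 3, although the labels describe male mice. In those libraries neutrophil markers summed to 12463 and 8968 CPM, and B lineage markers to 11111 and 34016 CPM. The part of these differences in the members' fold changes, Fos included, was not tested. CD93neg replicate 1 left 71.0% of tested genes unread with 2832653 reads, against 16.0% in CD93neg replicate 3 with 3003095. The cause was not tested. Folds of genes at or near 0 in CD93neg replicate 1 but read in CD93neg replicates 2 and 3 follow replicate 1. Fos, at or near 0 in every CD93neg library, had a log2 fold change of 8.77 with CD93neg replicate 1 and 9.27 without it. The main limma test, with 6 libraries, called no gene. Counts of called genes, and of members among them, were 314 and 1 (Fos) with a pseudocount of 0.25, 250 and 1 (Fos) with TMM scaling, 705 and 1 (Fos) with DESeq2 (the same 705 genes and the same fold changes as the authors' deposited table, so no separate evidence), and 7892 and 3 (Fos, Junb, Dusp1) without CD93neg replicates 2 and 3, where the lone CD93neg library is assumed to vary like the others. With 1 library left out they ranged from 0 to 1880 genes and from 0 to 1 member. Fos was called without CD93pos replicate 2 (774 genes in all) and without CD93neg replicate 3 (1880 genes), and 1 gene, not a member, was called without CD93neg replicate 1.

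The median log2 fold change of the members was 1.49, and 0.17 with quantile normalization, 0.71 with edgeR, 0.43 with DESeq2, 0.40 with library quality weights, 2.29 without CD93neg replicates 2 and 3, and 0.52 to 1.69 with 1 library left out. The median of all tested genes was 2.36, and 0.02, 0.44, 0.36, 0.71 and 5.70 in the same order. The DESeq2 value of 0.36 was taken without the filter on low values, so it covers more genes than the others. The ratio of summed levels was 1.31, 1.43 on the CPM scale, 0.831 without CD93neg replicates 2 and 3, and 1.06 to 1.83 with 1 library left out.

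Fos, Dusp1 and Jund kept a positive log2 fold change in all 18 alternatives run. Directions turned for the other 5 tested members, and the cause was not tested. Without CD93neg replicate 1 the log2 fold changes were -1.27 for Junb, -0.51 for Egr1 and 0.12 for Ier2, and with any 1 library left out they ranged from -1.27 to 3.41, from -0.51 to 1.71 and from -0.54 to 0.12. With quantile normalization they were -0.51, -0.76 and 0.0758, and with library quality weights -0.98 for Junb and -0.25 for Egr1. Junb had -0.56 with edgeR and -0.63 with DESeq2. Ier2 had 0.0201 with TMM scaling, 0.0206 with edgeR and 0.10 without CD93pos replicate 1. Without CD93neg replicates 2 and 3, Jun had -0.66 and Nr4a1 1.07.

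Replicate numbers are shared between the groups, but the labels do not say that they pair libraries. Deviations from the group means correlated across genes by 0.04, 0.02 and 0.06 for libraries of the same number. Each library correlated best with its own number, but all these values were small, with -0.0473 to 0.0099 for libraries of different numbers. They cannot settle whether the libraries are paired. With the replicate block limma called 24 genes in all and 1 member, Jun (adjusted p = 5.38e-10, against 0.0859 or more in its other alternatives), while Fos had an adjusted p of 0.126. The Jun pairs differ in direction, lower in CD93pos for replicate 1 and higher for replicates 2 and 3. Its call rests on limma's trend: the block fit left 2 residual degrees of freedom and used the trend's SD of 0.19 in place of Jun's own 0.99.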

Other observations

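Several genes of the related lists were read in CD93pos and unread in all 3 CD93neg libraries, where Fos had 1 read. They were named after their values were seen. Of all tested genes 5.95%, or 702, were read in every CD93pos library with at most 1 read over CD93neg, so the pattern was not limited to early genes. Whether it was more frequent among them was not tested. Bounds take 3 reads over CD93neg as the floor, 0.287 CPM, which is 0.514 CPM without CD93neg replicate 2, so that each bound is lower in proportion without that library. Csrnp1, an early nuclear protein, had 634 reads over CD93pos and was at least 98.3-fold higher, with an adjusted p of 0.00665 in the authors' deposited table. Mapk3, the kinase ERK1, had 566 reads and was at least 87.8-fold higher. Tnfaip3, an inhibitor of NF-kappaB signalling, had 331 reads and was at least 51.3-fold higher. Crem, a relative of CREB whose short form represses cAMP-induced genes, had 315 reads and was at least 48.9-fold higher, with an adjusted p of 0.0135 in the authors' deposited table. Hspa1b had 275 reads, 42.7-fold higher at least. Without CD93pos replicate 1 that bound was 23.1-fold. Hspa1a, its near-identical copy, had 4888 reads in CD93pos and 32 in CD93neg, all of them in CD93neg replicate 3. The split of reads between both copies is uncertain.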
